A study of Mus musculus with 4 samples.

Results

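The 10 genes described here are 7 cathepsins (Ctsb, Ctsd, Ctsl, Ctss, Ctsz, Ctsk and Ctsw) and 3 cystatins (Cst3, Cst7 and Cstb), taken by symbol from the 31053 genes measured, and each of the 10 was found once. They were read in single immune cells that had infiltrated tumours in the brains of C57BL/6 mice once symptoms had appeared. The tumours belong to a genetically engineered glioma model and carried mutant IDH1 (mIDH1, 2 libraries) or wild-type IDH1 (wtIDH1, 2 libraries), and the study asked how infiltrating myeloid cells vary between these tumours. The sources used here give no other allele shared by the tumours, no animal age, no gate by which immune cells were isolated, and no word on whether each library came from 1 animal or from several. P-values therefore measure only the spread between these 4 libraries.

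Cathepsins are proteases of the endosomes and lysosomes. They break down proteins taken up by the cell, mature other enzymes and, in antigen-presenting cells, trim the invariant chain Cd74 and cut antigens for display on MHC class II. Cystatins are small proteins that block cysteine cathepsins: Cst3 (cystatin C) is secreted, Cst7 (cystatin F) acts inside the endosomes and lysosomes of immune cells, and Cstb (stefin B) stays in the cytosol and nucleus. Ctsd is an aspartic protease and so lies outside the reach of cystatins, whereas the other 6 cathepsins here are cysteine proteases.

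The files hold counts of unique molecular identifiers (UMIs, each standing for 1 captured RNA molecule). Of 16289 barcodes, 13197 cells were kept, 3653 and 3507 in the mIDH1 libraries and 3057 and 2980 in the wtIDH1 libraries, and the libraries' UMI totals ran between 20908476 and 29849183. Pairs of libraries shared 6 to 25 barcodes. Cells were sorted into gates by marker genes, which gave 1530 macrophages, 413 microglia, 1476 monocytes, 509 dendritic cells, 1624 T cells and 638 NK cells, with 32 to 581 cells per gate and library. The summed microglia markers (P2ry12, Tmem119, Sall1 and others) stood at 3108, 3129, 3274 and 4996 counts per 1000000 UMIs (CPM) in the microglia gate and at 165 CPM or less in the macrophage gate, and each of the 6 lists was highest in its own gate except the macrophage list, which microglia share. The neutrophil gate held 31.8% and 53.2% of the kept cells in mIDH1 libraries, against 4.35% and 7.01% in wtIDH1 libraries. Levels below are CPM of the UMIs of the gate's cells in 1 library, given as mIDH1 replicates 1 and 2 and then wtIDH1 replicates 1 and 2. UMIs are counted near the 3′ end, so levels are compared for 1 gene between gates and not between genes.

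**Figure D1:**
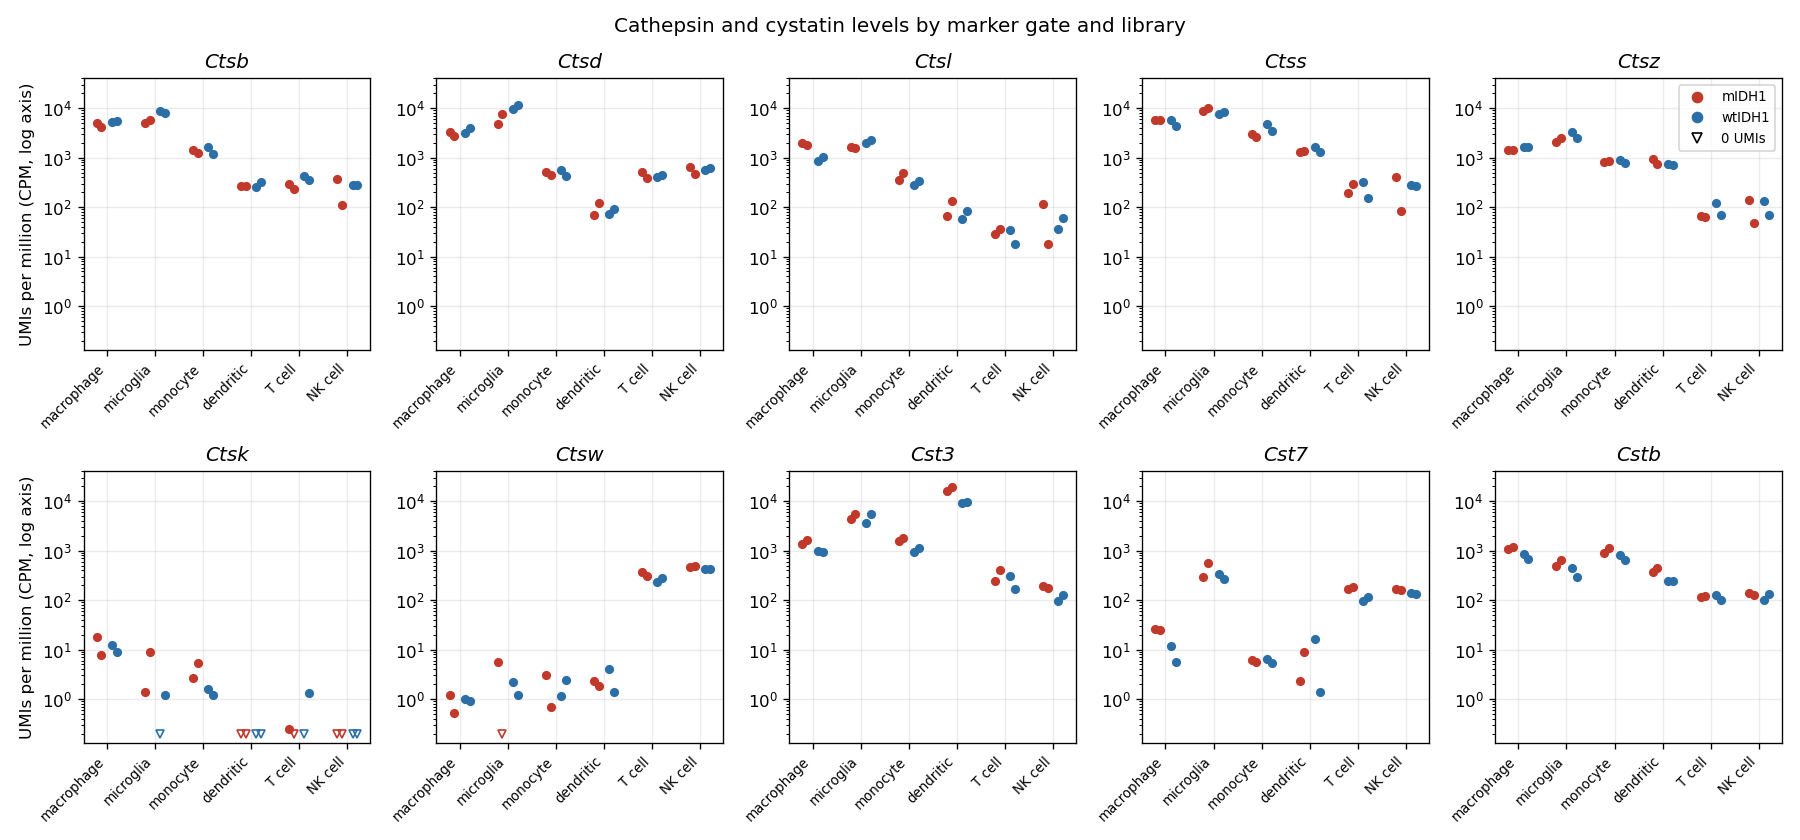
CPM (log axis) of each of the 10 genes in 6 marker gates. Each point is 1 library, mIDH1 in red to the left and wtIDH1 in blue to the right, and open triangles mark libraries with 0 UMIs. Ctsb, Ctsd, Ctsl, Ctss and Ctsz stand highest in macrophages and microglia, Cst3 in dendritic cells and Ctsw in NK and T cells.

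Ctsb, Ctsd and Ctsl, the general lysosomal proteases, were highest in macrophages and microglia. Ctsb, a cysteine protease with endopeptidase and dipeptidase activity, read 5003, 4072, 5177 and 5544 CPM in macrophages. In microglia Ctsb stood at 4912, 5659.5, 8713 and 7859 CPM, a range that overlapped the macrophages. Monocytes had a Ctsb level of 1415, 1214, 1618 and 1210.4 CPM, below every macrophage library. Dendritic, T and NK cells overlapped one another at 109 to 434 CPM of Ctsb. The order of mean Ctsb was thus microglia, macrophages, monocytes and then 3 low gates with overlapping ranges, of which NK and T cells are tested below with the library as a block.

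Ctsd, the main aspartic protease of the lysosome, stood at 3244, 2801, 3149.6 and 4066 CPM in macrophages and at 4822, 7466, 9571 and 11808 CPM in microglia. The microglia libraries all lay above the macrophage libraries. Ctsd was next in NK cells at 644, 472, 561 and 614 CPM, then in monocytes at 517, 454, 553 and 435 CPM and in T cells at 510.0, 385, 414 and 455 CPM, and these 3 gates overlapped. Dendritic cells were lowest, at 69.1, 120.4, 72.2 and 90.4 CPM, with no overlap with any of the other 5 gates. C1qa, C1qb and C1qc, complement genes of macrophages that lymphocytes should lack, summed to 95.8 to 236 CPM in T cells and to 102 to 743 CPM in NK cells, against 6436 to 8744 CPM in macrophages. The ratio of Ctsd to these C1q genes was 0.868, 4.62, 1.36 and 2.89 in NK cells and 0.403, 0.320, 0.489 and 0.553 in macrophages, so Ctsd in NK cells exceeded the macrophage ratio in every library. For Ctsb the ratio in NK cells was 0.489, 1.07, 0.680 and 1.32, against 0.622, 0.466, 0.804 and 0.754 in macrophages, and the NK ratio lay below the macrophage ratio in the first library of each genotype.

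Ctsl, a cysteine endopeptidase of the same acid compartment, read 1953, 1801, 847 and 1007 CPM in macrophages and 1615, 1574, 1972 and 2319 CPM in microglia. The 2 gates overlapped, and within macrophages both mIDH1 libraries stood above both wtIDH1 libraries. Monocytes reached 285 to 494 CPM of Ctsl, dendritic cells 58.2 to 131 CPM, NK cells 18.2 to 115 CPM and T cells 18.2 to 36.7 CPM. The ratio of Ctsl to the C1q genes was 0.154, 0.178, 0.0865 and 0.279 in NK cells, against 0.243, 0.206, 0.132 and 0.137 in macrophages. It lay below the macrophage ratio except in wtIDH1 replicate 2, and the part of macrophage RNA in the NK level was not tested. Plasmacytoid dendritic cells, a small gate of 9 to 19 cells a library outside the 6, had 888, 1221, 1082 and 1628 CPM of Ctsl, above the range of the dendritic gate.

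Ctss and Ctsz extended further into antigen-presenting cells. Ctss, the cysteine protease that makes the last cuts in the invariant chain and stays active at neutral pH, stood at 5702, 5780.2, 5814 and 4464 CPM in macrophages and at 8704, 10219, 7765 and 8206 CPM in microglia. Monocytes had 2947, 2607, 4747 and 3437 CPM of Ctss and dendritic cells 1280.4, 1354, 1633 and 1318 CPM, while T and NK cells stayed at 81.7 to 407 CPM. Ctsz (cathepsin X), a carboxypeptidase, ranged over 1423 to 1649 CPM in macrophages and 2033 to 3247 CPM in microglia. Its levels in monocytes (781 to 910.4 CPM) and dendritic cells (719.8 to 928 CPM) overlapped. T and NK cells had 47.7 to 142 CPM of Ctsz, below every myeloid library.

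The promoter windows of Ctsd, Ctsl, Ctss and Cst3 are shown because these 4 genes mark the contrasts that follow: Ctsd and Ctss between macrophages and the other gates, Ctsl between the genotypes and Cst3 between dendritic cells and macrophages. Each line runs 5′ to 3′ along the gene from 250 bases before to 50 bases after its start, from RefSeq on GRCm38.p6. Windows were found for 7 of the 10 genes, not for Ctsb (chr14:63122462-63145923), Ctsw (chr19:5465043-5468507) or Cstb (chr10:78425669-78427622, all mm10). Capitals mark matches on either strand to CACGTG (the E-box), TCACGTGA (the core of the CLEAR element bound by TFEB, which contains the E-box) and GAGGAAGT (a core bound by PU.1).
Ctsd, chr7:142387778-142388077, minus strand: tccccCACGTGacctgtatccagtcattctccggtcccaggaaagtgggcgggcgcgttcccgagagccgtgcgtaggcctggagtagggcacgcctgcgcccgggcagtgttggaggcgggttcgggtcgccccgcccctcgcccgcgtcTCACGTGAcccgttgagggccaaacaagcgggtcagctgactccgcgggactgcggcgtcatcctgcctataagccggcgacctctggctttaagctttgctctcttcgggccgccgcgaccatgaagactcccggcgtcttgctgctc
Ctsl, chr13:64370471-64370770, minus strand: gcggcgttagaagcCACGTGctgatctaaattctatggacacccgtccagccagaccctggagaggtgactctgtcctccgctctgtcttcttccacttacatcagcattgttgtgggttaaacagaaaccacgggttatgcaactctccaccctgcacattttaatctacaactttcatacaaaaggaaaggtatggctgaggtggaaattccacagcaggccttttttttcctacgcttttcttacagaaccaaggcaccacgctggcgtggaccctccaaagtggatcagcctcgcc
Ctss, chr3:95526536-95526835, plus strand: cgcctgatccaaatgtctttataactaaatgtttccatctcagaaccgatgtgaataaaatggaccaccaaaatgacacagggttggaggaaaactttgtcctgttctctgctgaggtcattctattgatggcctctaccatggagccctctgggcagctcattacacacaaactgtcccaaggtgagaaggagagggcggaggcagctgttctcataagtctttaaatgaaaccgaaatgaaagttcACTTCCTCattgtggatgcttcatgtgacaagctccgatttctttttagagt
Cst3, chr2:148875463-148875762, minus strand: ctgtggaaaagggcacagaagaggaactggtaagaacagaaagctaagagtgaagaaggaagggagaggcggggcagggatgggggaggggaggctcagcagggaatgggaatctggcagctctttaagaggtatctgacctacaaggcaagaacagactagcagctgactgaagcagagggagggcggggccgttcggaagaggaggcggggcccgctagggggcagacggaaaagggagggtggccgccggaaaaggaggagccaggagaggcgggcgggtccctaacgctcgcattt
Ctsd held the CLEAR letters 99 bases before the RefSeq start used and a further E-box 245 bases before that start. TCACGTGA occurred in 0.974% of the 32851 RefSeq promoter windows of this length and CACGTG in 7.15%. Ctsl held an E-box 236 bases before the RefSeq start used. The Ctsl window lies wholly inside the gene's mm10 span (chr13:64359337-64370890), so this E-box is not shown to lie before the whole gene. The Ctsd and Cst3 windows lie partly inside their genes, whose mm10 spans reach 142388038 and 148875692. The CLEAR letters of Ctsd lie inside its span, so they are not shown to lie before the whole gene, and its further E-box lies outside the span. Ctss held the PU.1 letters on the opposite strand, in a match that began 2 bases before its start and ran across it. GAGGAAGT in either orientation occurred in 3.20% of windows. None of the 3 motifs was in the Cst3 window, nor in the windows of Ctsz, Ctsk and Cst7, which were found but are not shown.

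Ctsk, a collagen-degrading protease best known from osteoclasts, was almost unread. Macrophages held 249 UMIs of Ctsk in all, or 18.2, 7.83, 12.2 and 9.13 CPM, monocytes 32 UMIs, T cells 4 and microglia 3. Dendritic and NK cells held 0 UMIs, which allows a pooled level of up to 0.737 CPM in dendritic cells and 1.38 CPM in NK cells at 3 counts over the 4 libraries (counting error only). Ctsk and Ctss are neighbours on chromosome 3 (mm10, 95499256 to 95509362 and 95526786 to 95556403, both on the plus strand), yet Ctss was read in every gate and Ctsk reached at most 18.2 CPM among the 6 gates. It read up to 25.1 CPM in the Gpnmb or Adamdec1 macrophages described below.

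Ctsw, a cathepsin known from cytotoxic lymphocytes, was read in NK and T cells. NK cells had 472, 486, 421 and 428 CPM of Ctsw and T cells 364, 302, 231 and 278 CPM, with no overlap. The other 4 gates stayed at 5.59 CPM or less, and plasmacytoid dendritic cells reached 15.5 to 45.5 CPM. After each cell of at least 1000 UMIs was thinned to 1000, Ctsw was seen in 34.1%, 36.1%, 35.5% and 32.0% of NK cells and in 27.7%, 20.7%, 18.7% and 19.9% of T cells, whereas 0 of 346, 157, 446 and 581 macrophages had a UMI. In the smallest of these libraries that allows up to 2.32% of macrophages with a Ctsw UMI at this thinned depth (exact binomial, 95%), which does not limit the share expressing the gene. Without thinning the means were 70.0% ± 7.15 of NK cells and 57.7% ± 7.40 of T cells (SD, n = 4), at median depths of 2529 to 3583.5 and 3933 to 5595 UMIs, with 0.637% to 1.73% of macrophages at median depths of 10441 to 11708 UMIs. Within T cells Ctsw was higher in CD8 cells (780 cells, 303 to 443 CPM) than in CD4 cells without Foxp3 (449 cells, 82.2 to 248 CPM) or Foxp3 cells (158 cells, 10.8 to 184 CPM), and the CD8 range overlapped neither.

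Cst3, the secreted cystatin C, was led by dendritic cells. It stood there at 15853, 19744.5, 9210.4 and 9416 CPM, against 1340.4, 1609.7, 974 and 928 CPM in macrophages. Microglia came between, at 3591 to 5508 CPM, with no overlap with either gate. Monocytes had 1557, 1807, 922 and 1109 CPM, which overlapped macrophages, and T and NK cells 95.3 to 408 CPM. By dendritic subset, mean Cst3 was 21616 ± 9616 CPM in cDC1 cells (54 cells with more UMIs of Xcr1 and Clec9a), 13973 ± 7172 CPM in mature dendritic cells (219 cells high in Ccr7, Fscn1 and other maturation genes) and 12144 ± 4681 CPM in cDC2 cells (189 cells with more UMIs of Cd209a, Mgl2 and Clec10a; SD, n = 4 libraries each). The subset ranges overlapped. Within dendritic cells Ctss stood at 1669 to 2288 CPM in cDC2 cells, above the 794 to 1136 CPM of cDC1 cells and the 692 to 935 CPM of mature cells.

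Cst7, the cystatin of the endolysosome, was read in microglia and lymphocytes. Microglia had 299, 563, 339 and 268 CPM, NK cells 167, 159, 139 and 130.0 CPM and T cells 171, 181, 94.7 and 113 CPM. NK and T cells overlapped each other and lay below every microglia library. Macrophages had 25.5, 25.1, 12.1 and 5.56 CPM of Cst7, and monocytes and dendritic cells 1.39 to 16.4 CPM. Cells with macrophage markers but under 2000 UMIs (946 cells), which the macrophage gate leaves out, had 319, 303, 234 and 41.9 CPM of Cst7, far above the deeper macrophages in every library. Of these 946 cells, 355 fell in Leiden cluster 7, which also held 246 cells of the microglia gate, and there Cst7 read 555, 457, 541 and 165 CPM. In cluster 9, with 311 of them, it read 74.1, 85.1, 14.0 and 19.9 CPM. The microglia gate has no such minimum, and its cells under and above 2000 UMIs averaged 483 ± 202 and 351 ± 114 CPM of Cst7 (SD, n = 4 libraries). In T cells Cst7 followed the CD8 cells, at 123 to 229 CPM, above CD4 cells without Foxp3 (43.1 to 71.5 CPM) and Foxp3 cells (54.1 to 85.1 CPM). Thinning leaves out cells under 1000 UMIs: 16 of 123, 4 of 32, 18 of 113 and 18 of 145 microglia, and 0 macrophages. After thinning of the rest, Cst7 was seen in 26.2%, 42.9%, 24.2% and 20.5% of microglia and in 1.03% to 3.18% of macrophages. It was seen in 12.4% to 14.3% of NK cells and in 6.44% to 15.4% of T cells.

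Cstb, the cytosolic stefin B, was read in every gate. Macrophages had 1065, 1208, 848 and 685 CPM and monocytes 909.9, 1150.2, 823 and 636 CPM, ranges that overlapped. Microglia stood at 292 to 635 CPM and dendritic cells at 247 to 439 CPM. T and NK cells lay at 100.1 to 139 CPM.

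Set together by the UMIs of their sums, the 3 cystatins gave 6.21, 7.71, 3.43 and 3.80 UMIs for each cathepsin UMI in dendritic cells and 0.140, 0.179, 0.110 and 0.0970 in macrophages. The ratio spans different genes, so it is compared between gates and libraries only. In dendritic cells the cystatin sum was mostly Cst3 (mean 13556 CPM, against 327 for Cstb and 7.28 for Cst7). The cathepsin sum includes Ctsd, which cystatins do not block. Cathepsins took 1.59% to 1.73% of all UMIs in macrophages, 2.21% to 3.27% in microglia and 0.254% to 0.276% in dendritic cells. In each of the 6 gates, and in neutrophils, the cystatin to cathepsin ratio was higher in both mIDH1 libraries than in both wtIDH1 libraries. The gates share the same 4 libraries, and this order was not tested.

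Differences between gates were tested with edgeR's quasi-likelihood test on the summed UMIs, with the library as a block and adjusted p (Benjamini-Hochberg) over every gene tested. In dendritic cells against macrophages, Cst3 rose by a log2 fold change of 3.37 (SE 0.14, adjusted p = 3.15e-09), and 7 of the 9 genes tested fell, beside 45.7% of all genes called in either direction. Among the genes with UMIs in dendritic cells the fall was largest for Ctsd (-5.34, SE 0.20, adjusted p = 1.9e-09), then Ctsb (-4.21, SE 0.14) and Ctsl (-4.08, SE 0.21), and smaller for Ctss (-2.03, SE 0.13), Cstb (-1.62, SE 0.12) and Ctsz (-1.04, SE 0.13). Ctsk, at 0 UMIs in dendritic cells, was at least 16.5-fold lower there than the pooled macrophages, at a floor of 3 counts over the 4 libraries. Cst7 (-1.12, SE 0.46, adjusted p = 0.0643) missed the threshold of 0.05, and Ctsw was too low to test. The miss of Cst7 depends on the settings: it passed in 5 of 11 alternative fits, with log2 fold changes from -2.31 to -0.06. Without the macrophage gate's minimum of UMIs, 8 of the 9 genes tested fell. That minimum was set after high Cst7 had been seen in shallow cells, so this Cst7 test is not independent of it. The genes shared the direction with their compartment: of 14 other lysosomal hydrolases 12 fell and 0 rose (Lyz2 -4.93, Acp5 -3.24, Hexa -2.01 and Tpp1 -2.29 in edgeR's fit), and of 12 genes of the lysosome membrane and its proton pump 11 fell. All 4 other cathepsins tested of 7 listed (Ctsa, Ctsc, Ctsh and Ctso) and all 4 lysosome transcription factors (Tfeb, Tfe3, Mitf and Tfec) fell as well. All 6 tested genes of MHC class II presentation rose instead, among them Cd74 (1.47), the substrate of Ctss, and H2-Eb1 (2.07). List medians were -1.66 for the hydrolases, -1.42 for the membrane list and 1.64 for the presentation list, against 0.01 over all genes tested.

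**Figure D2:**
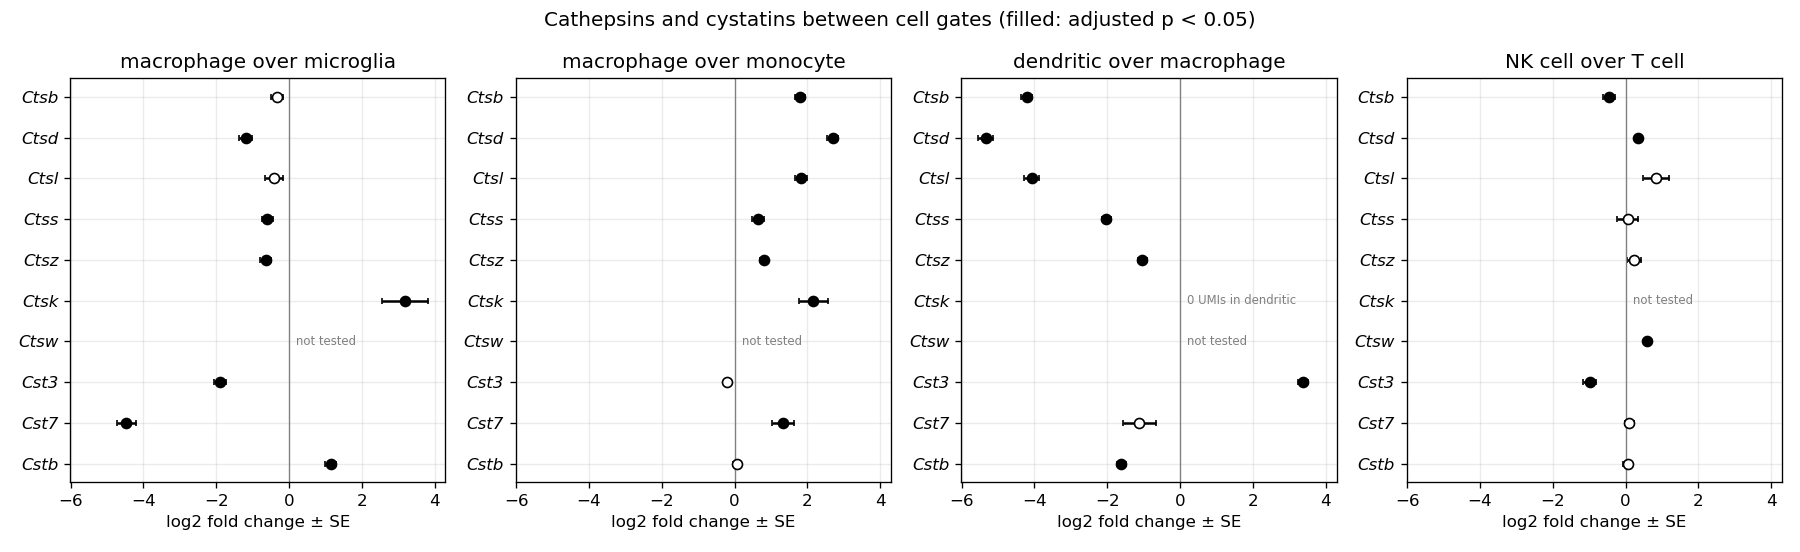
Log2 fold change ± SE of each gene between 2 gates, from edgeR over 4 libraries with the library as a block. Filled points passed adjusted p < 0.05 and open points did not, and positive values mean higher in the gate named first. Cst3 is the 1 gene to the right of 0 in dendritic cells over macrophages, while 7 cathepsins and cystatins, Ctsk with 0 UMIs among them, fell there.

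In macrophages against monocytes, 7 of 9 genes tested rose and 0 fell, where 42.4% of all genes passed. These were Ctsd (2.70, SE 0.15, adjusted p = 5.83e-06), Ctsk (2.17, SE 0.39), Ctsl (1.81, SE 0.17), Ctsb (1.80, SE 0.14), Cst7 (1.32, SE 0.31), Ctsz (0.80, SE 0.11) and Ctss (0.64, SE 0.16, adjusted p = 0.0122). Cst3 and Cstb did not pass, with adjusted p of 0.169 and 0.694. So all 6 cathepsins tested were higher in macrophages, and of the cystatins Cst7 alone. The macrophage gate's minimum of 2000 UMIs was set after high Cst7 had been seen in shallow cells, so the Cst7 test is not independent of it. Ctss lost its call without mIDH1 replicate 1 (adjusted p = 0.06) and without mIDH1 replicate 2 (adjusted p = 0.0536). Other lysosomal hydrolases rose in 13 of 14 cases, with a list median of 1.17 beside 0.02 over all genes, and Naglu (2.02), Lipa (1.73), Hexa (1.54) and Tpp1 (1.30) were among them. The membrane list had 9 of 12 up, led by Atp6v0d2 (4.03), a proton pump subunit, and Cd63 (3.05), a membrane protein of late endosomes. Lgmn, the asparaginyl protease that matures cathepsins, rose by 1.86, and Psap (1.08) and Grn (1.36), precursors of small lysosomal proteins, also rose. Of the 4 transcription factors 0 rose and Tfe3 fell by 0.32, and 0 of 6 presentation genes passed.

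In macrophages against microglia, 2 of 9 genes tested rose and 5 fell, where 23.9% of all genes passed. Cstb (1.14, SE 0.15, adjusted p = 5.6e-05) and Ctsk (3.18, SE 0.64, on 3 UMIs in microglia) rose. Cst7 fell most (-4.47, SE 0.27, adjusted p = 2.99e-08), followed by Cst3 (-1.90, SE 0.17), Ctsd (-1.20, SE 0.19), Ctsz (-0.64, SE 0.15, adjusted p = 0.00632) and Ctss (-0.59, SE 0.15, adjusted p = 0.0105). The Cst7 test is not independent of the macrophage gate's minimum of UMIs, set after high Cst7 had been seen in shallow cells. Over 11 alternative fits the log2 fold change of Cst7 ranged from -4.88 to -3.85, and Cst7 passed in each. Ctsb and Ctsl did not pass (adjusted p of 0.172 and 0.275). Ctsz lost its call without wtIDH1 replicate 1 (adjusted p = 0.0534), and Ctss without wtIDH1 replicate 2 (0.0536) or mIDH1 replicate 2 (0.0817). The lysosome did not move as 1 block: of 14 other hydrolases 4 rose and 8 fell, with Acp5 (3.50) and Lyz2 (2.36) among those that rose, and Ctsf, a cysteine cathepsin of the same family, fell by 4.59.

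In NK cells against T cells, Ctsw (0.60, SE 0.10, adjusted p = 0.000339) and Ctsd (0.34, SE 0.09, adjusted p = 0.00888) rose and Cst3 (-0.98, SE 0.18, adjusted p = 0.000593) and Ctsb (-0.45, SE 0.16, adjusted p = 0.0439) fell, 4 of 9 genes tested where 34.5% of all genes passed. Cst7 did not pass (adjusted p = 0.58), nor did Ctsl (0.84, SE 0.35, adjusted p = 0.0787). Within T cells Cst3 read 102 to 253 CPM in CD8 cells, 188 to 374 CPM in CD4 cells without Foxp3 and 91.9 to 2241 CPM in Foxp3 cells. The macrophage list summed to 345, 1164, 486 and 250 CPM in T cells and to 2806, 327, 766 and 451 CPM in NK cells. The part of the T cell subsets and of macrophage RNA in the Cst3 difference was not tested. Ctsd lost its call without wtIDH1 replicate 1 (0.0702) or replicate 2 (0.051). Ctsb lost it without wtIDH1 replicate 1 (0.204), wtIDH1 replicate 2 (0.0924) or mIDH1 replicate 2 (0.137), with library totals alone as the scale (0.0593) and in DESeq2 (0.0521). Of 5 granule genes whose products cathepsins process or accompany in killer cells, Gzma (2.90), Serpinb9 (1.91), Prf1 (1.84) and Gzmb (0.89) rose and Srgn fell by 0.36. Ctsc, the protease that activates granzymes and a target of Cst7, rose by 0.53 (adjusted p = 0.041).

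Between genotypes, cystatins passed the test in 4 of the 6 gates: macrophages, monocytes, T cells and NK cells. There 8.97%, 13.2%, 3.67% and 4.92% of all genes passed. In monocytes 1 of 8 genes tested passed, close to the share of all genes, and in T cells and NK cells 1 of 9 each. The gates come from the same 4 libraries. Ctsl in macrophages was the 1 cathepsin to pass in any gate. In macrophages 4 of the 9 genes tested rose in mIDH1 and 0 fell, where 8.97% of all genes passed: Ctsl and the 3 cystatins. Ctsl rose by a log2 fold change of 1.27 (SE 0.18, adjusted p = 0.00341, edgeR), with 1953 and 1801 CPM in mIDH1 macrophages, against 847 and 1007 CPM in wtIDH1 macrophages. Cst7 rose by 1.78 (SE 0.33, adjusted p = 0.0129), with 25.5 and 25.1 CPM in mIDH1 and 12.1 and 5.56 CPM in wtIDH1 macrophages. Neither gene overlapped between the genotypes. The Cst7 test is not independent of this gate's minimum of 2000 UMIs, set after high Cst7 had been seen in shallow cells. With no minimum 4 of the 9 genes were again called. Cst3 rose by 0.88 (SE 0.19, adjusted p = 0.0199), with 1340.4 and 1609.7 CPM in mIDH1 and 974 and 928 CPM in wtIDH1 macrophages. Cstb rose by 0.82 (SE 0.19, adjusted p = 0.0304), with 1065 and 1208 CPM in mIDH1 and 848 and 685 CPM in wtIDH1 macrophages. These 2 cystatins did not overlap either. An exact permutation test of 2 libraries a genotype gives 0.333 at the least, so the calls rest on edgeR's shared variance model. Libraries that separate fully by genotype reach only that value, and the share of all genes that separate was not counted. Non-overlap of the genotypes, here and in the other gates, is therefore description only.

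The other cathepsins in macrophages gave small differences that did not pass: Ctsb 0.00 (SE 0.18, adjusted p = 0.991), Ctsd -0.01 (SE 0.19, adjusted p = 0.986), Ctsz 0.06 (SE 0.17, adjusted p = 0.848), Ctss 0.41 (SE 0.20, adjusted p = 0.252) and Ctsk 0.64 (SE 0.34, adjusted p = 0.283). The sign of Ctsb, Ctsd, Ctsz and Ctsk changed under at least 1 alternative. Fold changes follow the trimmed mean normalization, and with library totals alone the median of all genes in macrophages shifted to -0.26, so a fold change is read relative to the bulk of genes. The rest of the lysosome gave 1 call of 14 hydrolases (Lyz2, 0.96, adjusted p = 0.0401), 0 of 12 membrane genes, 0 of 5 other cathepsins tested of 7 listed and 0 of 4 transcription factors. Igf2r, a receptor that carries new lysosomal enzymes, rose by 1.08 (adjusted p = 0.0396), and 4 of 6 presentation genes rose, Cd74 by 1.30, H2-Eb1 by 1.25, H2-Ab1 by 0.94 and H2-Aa by 0.90. List medians were -0.01 for the hydrolases and 0.92 for the presentation genes, against -0.02 over all genes.

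The macrophage gate was made up of different clusters in the genotypes. Leiden cluster 2, which the marker lists place between monocytes and macrophages, held 53.5% and 49.7% of the gate in mIDH1, against 6.05% and 5.16% in wtIDH1, and cluster 3 held 29.2% and 31.8% in mIDH1, against 72.9% and 69.2% in wtIDH1. Ctsl was higher in cluster 2 than in cluster 3 in each library, so the mix of clusters and the genotype move together in the gate's value. Within cluster 2 Ctsl read 2544 and 2481 CPM in mIDH1, against 1334 and 1889.8 CPM in wtIDH1, and within cluster 3 it read 1116 and 1149 CPM in mIDH1, against 855 and 1010.0 CPM in wtIDH1. Neither pair overlapped, and in cluster 3 the difference was smaller than in the gate as a whole. Cst3 and Cstb were also higher in both mIDH1 libraries within each of these clusters. Cst7 overlapped in both, with 13.1 and 6.65 CPM in mIDH1, against 10.2 and 6.21 CPM in wtIDH1 cluster 3 cells. In the 36 macrophage-gate cells of cluster 7, the microglia cluster, Cst7 read 619.9 and 497 CPM in mIDH1, against 328 and 91.3 CPM in wtIDH1. Cluster 7 held 4.62% and 5.10% of the gate in mIDH1, against 1.79% and 0.688% in wtIDH1. The part of these cells in the gate's Cst7 difference was not tested. The clusters were made without the cathepsins and cystatins described here, from 2000 variable genes among the rest. These values are descriptions with no test.

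Leaving out single libraries changed several of these calls. Ctsl passed in all 4 such fits. Cst7 missed the threshold without mIDH1 replicate 1 (adjusted p = 0.0769) and without mIDH1 replicate 2 (0.0742), and Cst3 without wtIDH1 replicate 2 (0.0943) and without mIDH1 replicate 2 (0.0998). Of the 4 fits without 1 library, Cstb passed in the one without wtIDH1 replicate 1, with adjusted p of 0.183 without wtIDH1 replicate 2, 0.0507 without mIDH1 replicate 1 and 0.149 without mIDH1 replicate 2, and it also missed with library totals alone as the scale (0.57, adjusted p = 0.0611). In classes made by clustering rather than gating, Ctsl (0.41, adjusted p = 0.38), Cst3 (1.25, adjusted p = 0.12) and Cstb (0.59, adjusted p = 0.27) lost their calls, and Cst7 kept its own. Neutrophil markers summed to 656 and 455 CPM in mIDH1 macrophages, against 226 and 285 CPM in wtIDH1 macrophages, and their part in the result was not tested.

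Macrophages with more UMIs of Mrc1 and Pf4 (851 cells, the Mrc1 or Pf4 subset) and those with more of Gpnmb and Adamdec1 (428 cells) differed in their cathepsins, and the 2 subsets made up different shares of the gate in the genotypes. The Gpnmb or Adamdec1 subset held 61 and 27 cells in mIDH1, against 154 and 186 cells in wtIDH1, and the Mrc1 or Pf4 subset 237 and 98 cells in mIDH1, against 190 and 326 cells in wtIDH1. Ctsl was higher in mIDH1 within each: 2285 and 2062 CPM in mIDH1, against 992 and 1174 CPM in wtIDH1 Mrc1 or Pf4 cells, and 1188.5 and 1553 CPM in mIDH1, against 744 and 791 CPM in wtIDH1 Gpnmb or Adamdec1 cells. In Gpnmb or Adamdec1 cells Cst7 did not overlap, with 79.5 and 75.5 CPM in mIDH1, against 18.9 and 6.15 CPM in wtIDH1. In Mrc1 or Pf4 cells Cst7 read 9.71 and 5.30 CPM in mIDH1, against 6.38 and 5.19 CPM in wtIDH1, and overlapped. Over all libraries Ctsd averaged 6072 ± 1328 CPM in Gpnmb or Adamdec1 cells and 2582 ± 663 CPM in Mrc1 or Pf4 cells, and Ctss 8194 ± 2929 and 4498 ± 561 CPM in the same order (SD, n = 4 libraries). These subset values are descriptions with no test.

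**Figure D3:**
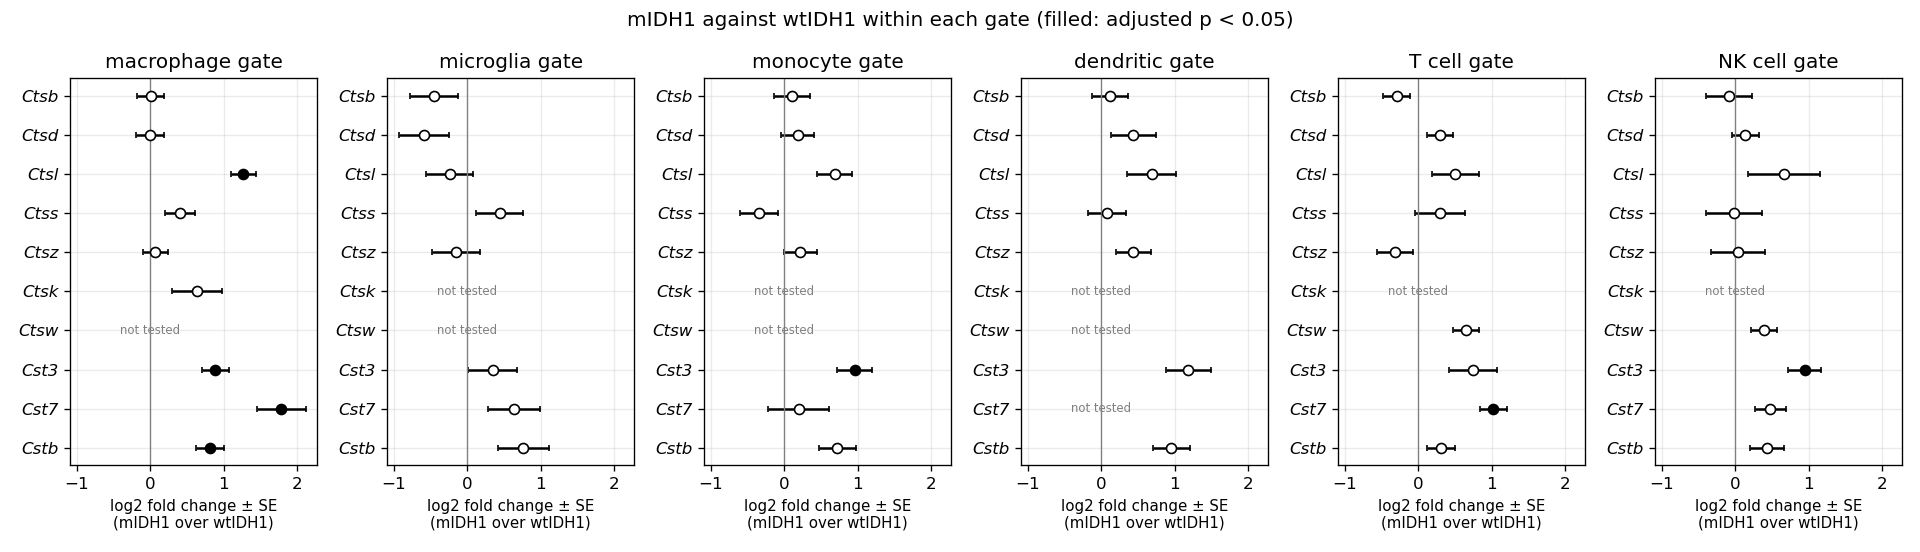
Log2 fold change ± SE of mIDH1 over wtIDH1 within each gate, from edgeR on 2 libraries a genotype. Filled points passed adjusted p < 0.05 and open points did not. Ctsl, Cst3, Cst7 and Cstb passed in macrophages, Cst3 in monocytes and NK cells and Cst7 in T cells.

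In microglia 0 of 8 genes tested passed, where 1.4% of all genes did (99 of 7063 by edgeR). The lowest adjusted p was 0.404, 1 gene (Cstb) had an unadjusted p under 0.05, and DESeq2 also called 0. Ctsb stood at 4912 and 5659.5 CPM in mIDH1 microglia, against 8713 and 7859 CPM in wtIDH1. Ctsd stood at 4822 and 7466 CPM in mIDH1, against 9571 and 11808 CPM in wtIDH1. Neither passed (adjusted p of 0.674 and 0.556), and their lower values in both mIDH1 libraries are description only. The list of macrophage markers, several of which microglia share, summed to 59681 and 57758 CPM in mIDH1 microglia, against 26346 and 25736 CPM in wtIDH1, and its part in these levels was not tested. The mIDH1 replicate 2 microglia were 32 cells. Of 10 other cystatins and stefins listed, Stfa2l1 was the 1 tested: it read 18.2 and 26.8 CPM in mIDH1 microglia and 0 in both wtIDH1 libraries (adjusted p = 0.0279), and stood at 267 to 1274 CPM in neutrophils.

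The difference between the genotype effects was itself tested. Ctsl differed between macrophages and microglia by 1.52 (SE 0.32, adjusted p = 0.00454, edgeR), the 1 gene of 9 to pass where 0.563% of all genes did. This call was lost without mIDH1 replicate 1 (adjusted p = 0.369), without mIDH1 replicate 2 (0.229) and in cluster classes (0.47, adjusted p = 1), while the difference stayed at 1.48 or more in each fit without 1 library. The mix of clusters in the macrophage gate, given above, moves with the genotype here too. Cst7 differed by 1.31 (SE 0.35, adjusted p = 0.0593). Between macrophages and monocytes 0 of 9 genes differed by edgeR, where 1.12% of all genes did, with Ctss closest (0.71, SE 0.18, adjusted p = 0.0853). At an unadjusted p under 0.05 there were 3, and DESeq2 called 1. Of 6 presentation genes 5 differed, H2-Aa by 1.62 and Cd74 by 1.31, with the mIDH1 effect higher in macrophages.

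In monocytes Cst3 was the 1 gene of 8 tested to rise (0.96, SE 0.24, adjusted p = 0.0203), where 13.2% of all genes passed. It had 1557 and 1807 CPM in mIDH1 monocytes, against 922 and 1109 CPM in wtIDH1, with no overlap. Cstb (0.72, SE 0.25, adjusted p = 0.0784) and Ctsl (0.68, SE 0.24, adjusted p = 0.0796) were next. Ctsl read 355 and 494 CPM in mIDH1 monocytes, against 285 and 339 CPM in wtIDH1. Cst3 lost its call without wtIDH1 replicate 1 (adjusted p = 0.181), wtIDH1 replicate 2 (0.0556) or mIDH1 replicate 2 (0.104). Among lysosome genes Lyz2 (1.51), Cd68 (1.08) and Slc11a1 (0.65) rose and Scarb2 (-0.91) fell, while H2-DMb1, which helps load peptides on MHC class II, fell by 0.71. The neutrophil list stood at 424 and 553 CPM in mIDH1 monocytes, against 247 and 219.6 CPM in wtIDH1, and its part was not tested.

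In dendritic cells 0 of 7 genes tested passed by edgeR, where 1.69% of all genes did. Cst3 (1.19, SE 0.31, adjusted p = 0.065) and Cstb (0.95, SE 0.25, adjusted p = 0.0648) were the 2 with an unadjusted p under 0.05, and DESeq2 called 2 genes. Cst3 had 15853 and 19744.5 CPM in mIDH1 dendritic cells, against 9210.4 and 9416 CPM in wtIDH1. Cst3 was also higher in both mIDH1 libraries within each subset, with 24497 and 33968 CPM in mIDH1 cDC1 cells, against 14525 and 13476.5 CPM in wtIDH1 cDC1 cells, although the mIDH1 cDC1 cells numbered 7 and 5. The cDC2 cells had 16773 and 15577 CPM of Cst3 in mIDH1, against 8008 and 8217 CPM in wtIDH1. None of 14 hydrolases and none of 9 membrane genes tested passed.

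In T cells Cst7 rose in mIDH1 (1.02, SE 0.19, adjusted p = 0.025), 1 of 9 genes tested where 3.67% of all genes passed. It had 171 and 181 CPM in mIDH1 T cells, against 94.7 and 113 CPM in wtIDH1. Ctsw followed at 0.64 (SE 0.18, adjusted p = 0.0785), with 364 and 302 CPM in mIDH1, against 231 and 278 CPM in wtIDH1. Cst7 lost its call without wtIDH1 replicate 1 (adjusted p = 0.118). CD8 cells numbered 287 of 512 and 125 of 241 T cells in mIDH1, against 144 of 452 and 224 of 419 in wtIDH1. Within CD8 cells Cst7 stood at 219.8 and 229 CPM in mIDH1, against 123 and 137 CPM in wtIDH1, whereas in CD4 cells without Foxp3 it read 49.8 and 43.1 CPM in mIDH1 and 71.5 and 63.2 CPM in wtIDH1. Granule genes gave 0 rises and 1 fall of 5, Serpinb9 (-1.86, adjusted p = 0.0112), an inhibitor of granzyme B.

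In NK cells Cst3 rose (0.94, SE 0.22, adjusted p = 0.0184), 1 of 9 genes tested where 4.92% of all genes passed. It read 191 and 173 CPM in mIDH1 NK cells, against 95.3 and 126 CPM in wtIDH1. The call was lost with library totals alone as the scale (0.72, adjusted p = 0.0731), and leaving out wtIDH1 replicate 1 (0.337) or replicate 2 (0.0719) also ended it. Macrophage markers were uneven here: the list summed to 2806 and 327 CPM in mIDH1 NK cells, against 766 and 451 CPM in wtIDH1, and its part in the Cst3 value was not tested. Ctsw (adjusted p = 0.244) and Cst7 (adjusted p = 0.222) did not pass. Both read higher in each mIDH1 library than in each wtIDH1 library, which with 2 libraries a genotype is description only.

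**Figure D4:**
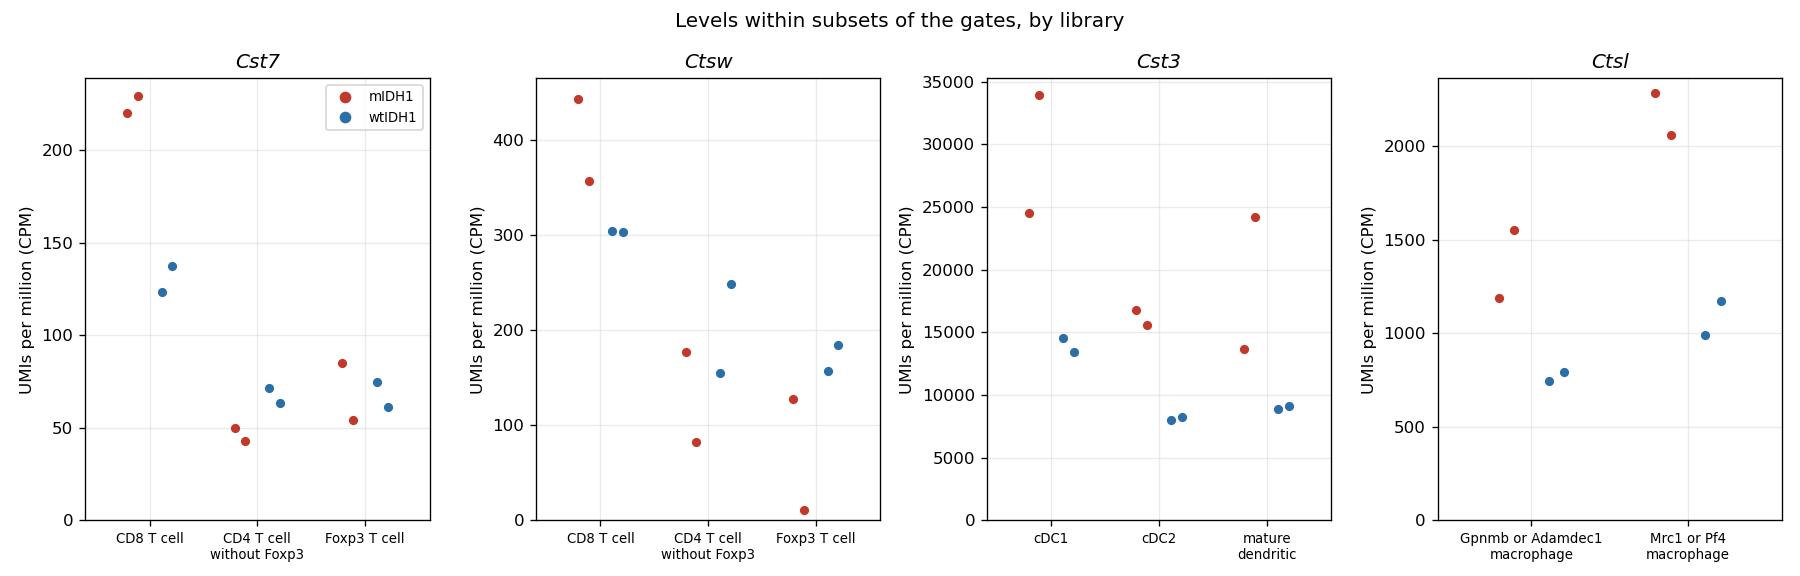
CPM of Cst7 and Ctsw in T cell subsets, Cst3 in dendritic subsets and Ctsl in macrophage subsets. Each point is 1 library, mIDH1 in red to the left and wtIDH1 in blue to the right. Cst7 in CD8 cells, Cst3 in cDC1 and cDC2 cells and Ctsl in both macrophage subsets stand higher in both mIDH1 libraries, and CD4 cells without Foxp3 show the opposite order for Cst7.

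The genes whose levels over gates and libraries were most like each member's were sought among 6042 genes, as Pearson's r of log2(CPM + 1) over 28 sums of gate and library, neutrophils included. Sums of 1 library share its depth, and the correlation describes these sums only. Ctsb was most like Rnase4 (0.975), Mertk (0.968) and Trem2 (0.965), and Ctsl like Trem2 (0.963), Trf (0.954) and P2ry6 (0.951). Ctsd was most like Timp2 (0.961), C1qa (0.941) and C1qc (0.939). Ctss and Ctsz both had Aif1 first (0.979 and 0.976), followed by Rin2 (0.976) and Cebpa (0.975) for Ctss and Pld4 (0.969) and Unc93b1 (0.968) for Ctsz. Ctsk, at its low level, reached 0.830 with Spp1, 0.829 with Cd38 and 0.822 with Pf4. Ctsw was most like Gimap7 (0.984), Skap1 (0.979) and Gimap3 (0.976). Cst3 was most like Hfe (0.928), Batf3 (0.926) and Pak1 (0.925), Cst7 like Tgfbr2 (0.874), Mxd4 (0.862) and Grap (0.860), and Cstb like Plin2 (0.970), Prdx5 (0.969) and Lst1 (0.962).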

How the data were processed

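Single immune cells from tumours were profiled with 10x Genomics 3′ chemistry, and the files hold the UMI counts per gene and cell that the authors deposited for each library. Per the submitters' processing notes, Cell Ranger 3.1 and the mm10 build were used, while the file headers name software version 3.0.0, and the protocol in the labels also describes aggregation to equal depth, which the unequal totals of these deposited counts do not show. Cells with under 200 genes or over 10% mitochondrial UMIs were removed, as were the highest doublet scores at 0.8% per 1000 cells (scanpy 1.11.5). Cells were gated by summed marker genes at thresholds set per list, with macrophages of at least 2000 UMIs. That minimum was set after values had been seen, among them high Cst7 in shallow cells. Tests of Cst7 that involve macrophages are therefore not independent of it. The members and lists were chosen with earlier results of these data known. Pathway genes named in the text have the lowest p of their list, or complete a stated group.

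UMIs were summed per library and gate and tested with edgeR 4.0.16 (R 4.3.3; TMM, filterByExpr, quasi-likelihood, Benjamini-Hochberg at 0.05), with the library as a block between gates. The procedure was tested on simulated data. Each library's depth and the 2 libraries a genotype limit precision, and intervals cover counting error only. Alternatives were size factors, library totals, no filter, DESeq2 1.42.0, a replicate block, a stricter gate, cluster classes, no depth minimum and leaving out each library.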

Additional observations from a re-analysis of the deposited data

Results flagged for a closer look

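The genotype effect on Ctsl differed between gates by the test of the difference itself: the log2 fold change of mIDH1 over wtIDH1 was higher in macrophages than in microglia by 1.52 (SE 0.32, adjusted p = 0.00454, edgeR). Ctsl stood at 1953 and 1801 CPM in mIDH1 macrophages, against 847 and 1007 CPM in wtIDH1 macrophages, and at 1615 and 1574 CPM in mIDH1 microglia, against 1972 and 2319 CPM in wtIDH1 microglia. The directions were opposite in the 2 gates, and in microglia alone Ctsl did not pass (adjusted p = 0.856). The call was lost without mIDH1 replicate 1 (adjusted p = 0.369), without mIDH1 replicate 2 (0.229) and in cluster classes, where the difference was 0.47 (adjusted p = 1). Different clusters made up most of the macrophage gate in the genotypes, cluster 2 with 53.5% and 49.7% in mIDH1 and cluster 3 with 72.9% and 69.2% in wtIDH1, and the part of this mix in the difference was not tested.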

How the results depend on the processing

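No called gene of the 10 changed direction under any alternative. In counts of genes called, the macrophage genotype comparison gave 1666 with no filter and 196 in cluster classes, and microglia 51 with library totals, 191 with no filter and 7 with the stricter gate. Monocytes gave 1970 with the replicate block and 568 with the stricter gate. Dendritic cells gave 83 with library totals, 371 with no filter, 326 in DESeq2, 486 with the replicate block and 40 in cluster classes. T cells gave 1100 with no filter, 761 in DESeq2, 618 with the replicate block, 596 with the stricter gate and 659 in cluster classes. The difference of effects between macrophages and microglia gave 25 in DESeq2 and 4 in cluster classes, and that between macrophages and monocytes 61 with library totals, 399 with no filter and 213 in DESeq2.

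Of the 10 genes, macrophages had 1 called in cluster classes. Monocytes had 3 with no filter, in DESeq2 or with the replicate block. Dendritic cells had 2 with no filter or in DESeq2 and 1 with the replicate block. T cells had 3 with no filter or in cluster classes and 2 in DESeq2 or with the stricter gate. NK cells had 0 with library totals and 2 with the stricter gate. The macrophage and microglia difference had 2 with the stricter gate or no depth minimum and 0 in cluster classes, and the macrophage and monocyte difference 2 with no filter or the stricter gate and 1 in DESeq2 or cluster classes. The causes were not tested.

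Leaving out 1 library gave, for genes called and for the 10, 273 to 863 and 1 to 4 in macrophages, 38 to 137 and 0 in microglia, 138 to 1326 and 0 to 3 in monocytes, 38 to 765 and 0 to 4 in dendritic cells, 276 to 1346 and 1 to 3 in T cells and 141 to 901 and 0 to 4 in NK cells. Between gates it gave 1429 to 2389 and 6 to 7 for macrophages against microglia, 3000.0 to 3660.0 and 6 to 7 for macrophages against monocytes, 3381 to 4149 and 8 to 9 for dendritic cells against macrophages and 2126 to 2810.0 and 2 to 4 for NK against T cells. The macrophage and microglia difference ranged over 25 to 86 and 0 to 2, and the macrophage and monocyte difference over 40 to 349 and 0 to 1.

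Among uncalled macrophage genotype values, Ctsz turned to -0.18 with library totals. Ctsd turned to 0.000947 with the replicate block, 0.0646 with the stricter gate and 0.24 in cluster classes. Ctsb turned to -0.24 with library totals, -0.0245 with no filter, -0.15 in cluster classes and -0.0141 with no depth minimum. Without 1 library, Ctsk ranged over -0.16 to 0.98, Ctsd over -0.16 to 0.17 and Ctsb over -0.11 to 0.11. Unthinned shares of cells were 50.7% for Cst7 in microglia, 57.7% for Ctsw and 39.8% for Cst7 in T cells, and 70.0% and 36.3% for Ctsw and Cst7 in NK cells.

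Replicate numbers were not used to pair the samples in the main tests. The correlation of same-numbered deviations lay between -0.128 and 0.141 over the 6 gates, with the highest value in dendritic cells. Such a correlation cannot show that pairing is absent. Crossing the numbers in microglia, an alternative chosen after seeing the data like the gate without the depth minimum, gave 422 genes called and 2 of the 10. The 413 microglia, 32 in 1 library, limit what could be detected there.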
